A study of Mus musculus with 6 samples.

Results

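The mannose receptor Mrc1, the secreted resistin-like protein Retnla, the signalling adaptor Blnk, the scavenger receptor Stab2 and the antibody constant regions Igkc and Igha were examined in tibialis anterior (TA) muscle. Taken by gene name, they make up 6 of 709 genes that the deposited table lists. RNA-seq was performed with 1 library from each of 3 WT and 3 NS-DADm mice. All 6 mice were 21 weeks old and on the C57BL/6 background, which the study's methods give as C57BL/6 J. NS-DADm mice carry whole-body knock-in point mutations in the deacetylase-activating domains of both corepressors NCoR and SMRT, which leave HDAC3 protein without its enzymatic activity. Age-matched WT mice carried neither mutation. Because the knock-in is not restricted to muscle fibers, blood and immune cells of NS-DADm mice carry the mutations too. The RNA came from whole muscle, so more cells of a type and more RNA per cell cannot be told apart.

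Skeletal muscle holds resident macrophages between its fibers, which clear debris and take up glycoproteins. Mrc1 (CD206) is a lectin of their surface that binds mannose-bearing glycoproteins, and in mice Retnla (also called RELM-alpha or Fizz1) is made by macrophages exposed to type 2 cytokines. Plasma cells are the antibody-secreting descendants of B cells. Their kappa light chains end in the Igkc constant region and the heavy chains of immunoglobulin A end in the Igha constant region. Blnk links the B cell receptor to downstream signalling and is also found in macrophages. Stab2 (stabilin-2) is a receptor for hyaluronan, best known from the sinusoidal endothelium of liver, spleen and lymph node, and so is not a macrophage marker.

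The table lists only genes that the authors called different between these same libraries. Any difference between genotypes given below was therefore selected in advance, and p-values are not independent evidence. A limma p-value sets the difference against a variance between mice that is partly borrowed from the other tabled genes. A normalized count is the number of reads of a gene divided by 1 size factor for its library. All values were whole multiples of 1 step per library, within 0.01 reads, and 1 read was worth 0.905 to 1.21 normalized counts. Reads over the tabled genes came to between 1047804 and 1411470 per library. NS-DADm3 had the fewest and had the largest median deviation from its genotype mean, 0.144 on the log2 scale, against 0.0872 to 0.122 in the other libraries.

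Promoter windows are shown where at most 30 of their bases are untranslated exon in GENCODE M21, which left Mrc1 and Retnla. Coding bases were not counted in this rule. The sequences are from RefSeq (build GRCm38.p6), where 4 of the 6 genes had an entry. Each run covers the 250 bases before the RefSeq start, read 5′ to 3′ on the strand of the gene. The starts in GENCODE M21 lie further upstream, so that the last 22 bases of the Mrc1 window and the last 58 of the Retnla window are in the first exon there. The Blnk window lies wholly in an exon of GENCODE and 83 bases of the Stab2 window do, and neither was used. Capitals mark matches on either strand to the core of PU.1 sites (GAGGAA), a STAT-type palindrome (TTC and GAA with any 4 bases between them), the octamer of immunoglobulin promoters (ATGCAAAT) and the TATA box (TATAAA).
Mrc1 (chr2:14229164-14229413, plus strand): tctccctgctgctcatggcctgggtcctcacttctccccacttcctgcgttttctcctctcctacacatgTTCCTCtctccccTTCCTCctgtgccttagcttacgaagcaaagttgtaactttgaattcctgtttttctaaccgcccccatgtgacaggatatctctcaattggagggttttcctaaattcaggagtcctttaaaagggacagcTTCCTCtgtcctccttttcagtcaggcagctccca
Retnla (chr16:48842359-48842608, plus strand): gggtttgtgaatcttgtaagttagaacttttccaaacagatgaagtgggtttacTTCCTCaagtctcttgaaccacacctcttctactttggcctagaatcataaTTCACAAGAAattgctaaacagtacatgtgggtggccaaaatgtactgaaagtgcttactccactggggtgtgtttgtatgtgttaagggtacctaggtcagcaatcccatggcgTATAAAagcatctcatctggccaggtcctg

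The Mrc1 window held 3 matches to the PU.1 core, which is the site of a transcription factor of myeloid and B cells, and the Retnla window held 1. Retnla also held 1 STAT-type palindrome, 145 bases before the RefSeq start. The letters TATAAA, 30 bases before that start, fall within the first exon of Retnla in GENCODE. They lie past its 22 untranslated bases there, and so in coding sequence of that annotation. Neither window held the octamer, and none of the marked matches overlapped another. Over all 32851 promoter windows of this length, 23.3% held the PU.1 core, 5.85% the STAT-type palindrome, 1.60% the octamer and 12.4% the TATA box. A match of letters is a description and does not show that a factor binds there.

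Mrc1 was 2.04-fold higher in NS-DADm muscles. Its normalized count was 126, 120 and 144 in WT1, WT2 and WT3 against 276, 296 and 224 in NS-DADm1, NS-DADm2 and NS-DADm3. The genotypes did not overlap, and the lowest NS-DADm library was 1.56 times the highest WT library. The group means were 265 ± 36.8 (SD, n = 3) and 130 ± 12.5 (SD, n = 3), which is 1.02 ± 0.16 (standard error) on the log2 scale, with a limma adjusted p = 3.32e-04 over the 709 genes. Its locus is chr2:14229392-14332057 (GRCm38), and its exon sequence shares no base with that of another annotated gene.

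Retnla was 3.10-fold higher in NS-DADm muscles. WT muscles had 55.2, 50.1 and 64.3 normalized counts, against 215, 175 and 135 for NS-DADm, with mice in numerical order. Even the lowest of the NS-DADm libraries, NS-DADm3, was 2.1 times the highest WT library. The means were 175 ± 40.1 (SD, n = 3) and 56.5 ± 7.23 (SD, n = 3), which is 1.60 ± 0.21 (standard error) as a log2 difference, with limma giving an adjusted p = 1.28e-04. Its locus is chr16:48842551-48844461 (GRCm38).

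The ratio of Retnla to Mrc1 within a library was 0.439, 0.417 and 0.447 in WT and 0.782, 0.591 and 0.602 in NS-DADm. The ratios of the genotypes did not overlap, and those of NS-DADm were the larger. The difference of the log2 fold changes was 0.58, and an exact two-sided permutation test gave p = 0.1, the smallest value that 3 mice against 3 allow. For the same reason each of the 6 genes alone reached p = 0.1 in the exact permutation test and could not go lower. The ratio of Blnk to Mrc1 was 0.194, 0.212 and 0.113 in WT and 0.230, 0.221 and 0.242 in NS-DADm, again without overlap. Its log2 difference was 0.43 (exact permutation p = 0.1), while that of Retnla to Blnk was 0.15 (exact permutation p = 0.7). A larger gain than that of Mrc1 was thus not particular to Retnla.

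Blnk was 2.76-fold higher in NS-DADm muscles. WT muscles gave 24.4, 25.5 and 16.3 normalized counts of Blnk, and NS-DADm muscles gave 63.4, 65.3 and 54.3. WT3 was the low library of its group, and NS-DADm libraries lay close together, with a coefficient of variation of 9.62%, under the 13.2% that counting 45 to 68 reads gives by itself. The means were 61.0 ± 5.87 (SD, n = 3) and 22.1 ± 5.02 (SD, n = 3), or 1.45 ± 0.26 (standard error) in log2 units, at a limma adjusted p = 7.80e-04. Its locus is chr19:40928927-40994535 (GRCm38).

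Stab2 was the member that fell. WT muscles had 160, 146 and 138 normalized counts, while NS-DADm muscles had 80.3, 120 and 67.6. The genotypes did not overlap, but NS-DADm2 came near to WT3, which was 1.15 times as high. WT muscles averaged 148 ± 11.2 (SD, n = 3) and NS-DADm muscles 89.3 ± 27.4 (SD, n = 3), which is 1.66-fold less. The log2 difference was -0.76 ± 0.21 (standard error), at a limma adjusted p = 0.00517. The gene, at chr10:86841198-87008025 (GRCm38), overlaps 5 annotated genes of the opposite strand, and 1.61% of its exon bases are shared with them, so that reads there cannot be assigned where counting ignores strand.

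The antibody transcripts were near the limit of detection in WT muscles. Igkc had 8, 4 and 1 reads in WT1, WT2 and WT3 and 30, 25 and 51 reads in the NS-DADm libraries, which are 7.24, 3.64 and 0.960 against 31.7, 24.0 and 61.6 normalized counts. The lowest NS-DADm library was 3.31 times the highest WT library. WT muscles averaged 3.95 ± 3.15 (SD, n = 3) and NS-DADm muscles 39.1 ± 19.8 (SD, n = 3), 9.90 times as much. On the log2 scale this was 3.14 ± 0.57 (standard error), at a limma adjusted p = 7.80e-04. The ratio of summed reads, scaled by the size factors, was 9.39 with an exact 95% interval of 5.26 to 18.2, which covers counting error only and not the spread between mice. The size depended on WT1 and on the pseudocount, with a ratio of means of 17.0 and a log2 difference of 3.62 without WT1, and a log2 difference of 2.27 with a pseudocount of 5. Igkc is a single exon at chr6:70726435-70726966 (GRCm38). It overlaps the noncoding gene Gm30211 but shares no exon base with it.

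Igha had 6, 0 and 0 reads in WT1, WT2 and WT3 and 18, 19 and 34 reads in the NS-DADm libraries, or 5.43, 0 and 0 against 19.0, 18.2 and 41.0 normalized counts. A count of 0 allows up to 3 reads, which are 2.73 normalized counts in WT2 and 2.88 in WT3. WT muscles averaged 1.81 ± 3.14 (SD, n = 3) and NS-DADm muscles 26.1 ± 12.9 (SD, n = 3), 14.4 times as much, and summed reads gave a ratio of 13.6 with an exact 95% counting interval of 5.96 to 38.4. The log2 difference was 3.77 ± 0.75 (standard error), at a limma adjusted p = 0.00125. This value depends on the pseudocount and on WT1, which held every WT read of Igha. It was 2.21 with a pseudocount of 5 and 4.44 with one of 0.5, against 1 in the main test. Without WT1 it was 4.66. Set against 3 reads allowed over WT2 and WT3 together, Igha was 18.0-fold higher. This ratio leaves out counting error and the spread between mice in NS-DADm, so it is not a lower bound. The constant region is at chr12:113254830-113260236 (GRCm38).

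**Figure D1:**
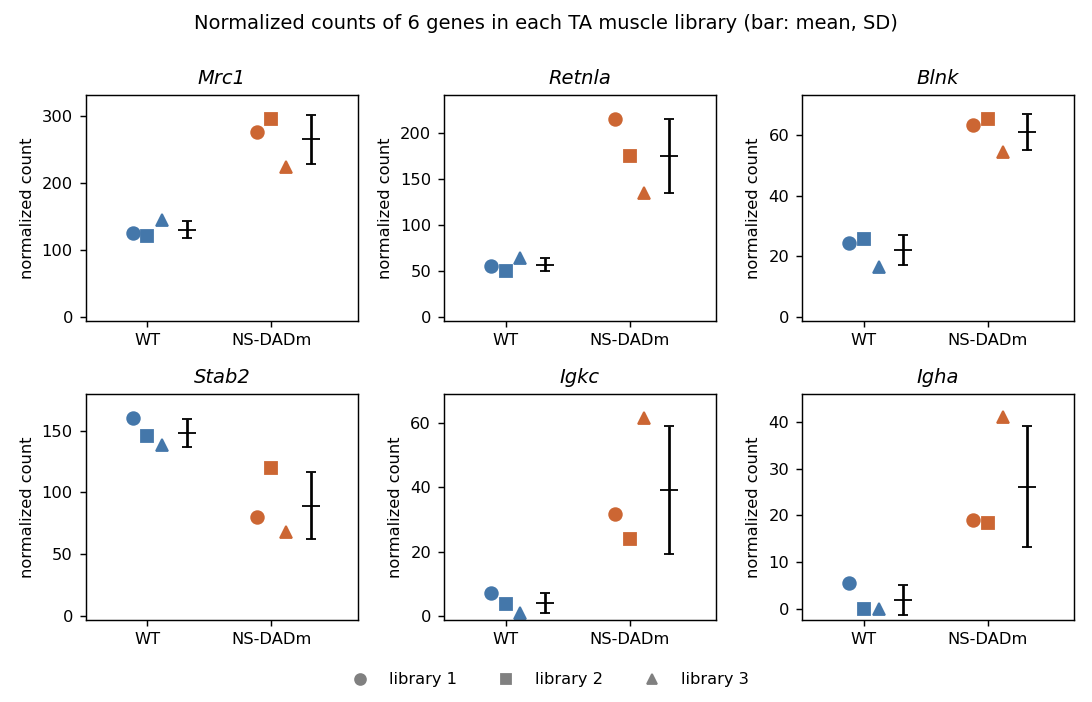
Normalized counts (vertical axes, each starting at or just below 0) of the 6 genes in each library, with WT in blue, NS-DADm in orange, 1 marker per library, and the mean with its SD at the right of each group. The genotypes do not overlap in any panel, Stab2 is the one that is lower in NS-DADm, and NS-DADm3 (triangle) is the lowest of its group for Mrc1, Retnla, Blnk and Stab2 but the highest for Igkc and Igha.

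All 6 genes passed an adjusted p under 0.05 in limma, 5 of them higher and 1 lower, and in all 6 the genotypes did not overlap. Among all tabled genes 50.9% passed in the higher and 49.1% in the lower direction, 49.5% showed no overlap with NS-DADm on the higher side, and 48.4% no overlap with NS-DADm on the lower side. Passing the test is thus a property of the whole table and not a result about these genes. The sizes were more variable than the calls. The median log2 fold change was 0.69 over the 361 higher genes and -0.72 over the 348 lower genes. By ratio of means, Igha was number 2 and Igkc number 7 of the higher genes, Retnla was number 47, Blnk number 57 and Mrc1 number 108. Stab2 was number 173 of the lower genes, near their middle. No tabled gene had a mean under 12.2 normalized counts over the 6 libraries. Igha and Igkc, with WT means of 1.81 and 3.95, exceed this only through their NS-DADm libraries. Their high ranks are thus tied to how genes entered the table and are not independent evidence of a large change.

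Among the 25 higher genes with a mean under 25 normalized counts over the 6 libraries, which include Igkc and Igha, the ratio of NS-DADm to WT ran from 2.88 to 16.7 with a median of 4.22. Among the 36 higher genes with a mean of 100 to 200, which include Retnla and Mrc1, the smallest ratio was 1.46 and the median 2.02. Mrc1, at 2.04, was close to that median, and Retnla, at 3.10, was above it. Among the 64 lower genes of the same abundance the ratio of WT over NS-DADm had a median of 1.71, close to the 1.66 of Stab2. The bounds of these abundance ranges were chosen after the values were seen.

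**Figure D2:**
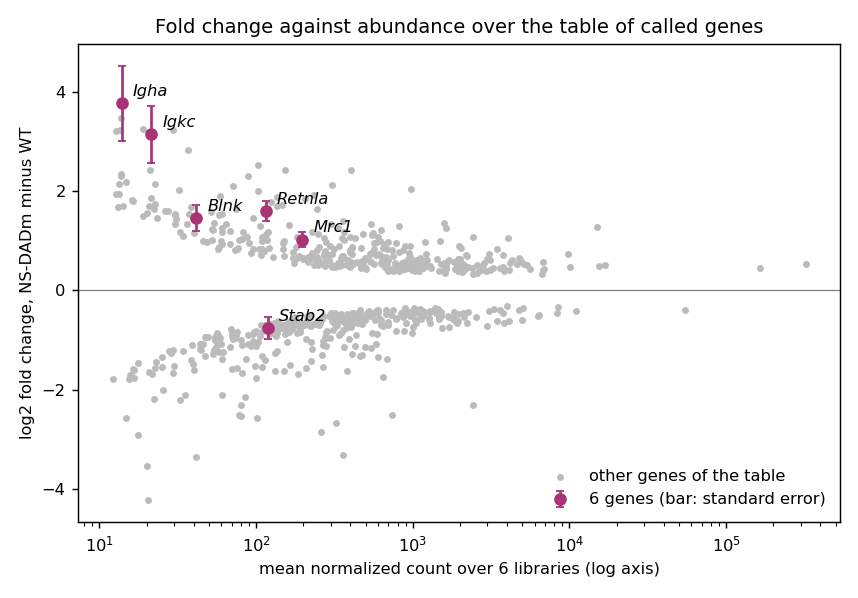
Log2 fold change of NS-DADm minus WT (vertical axis) against the mean normalized count over 6 libraries (horizontal log axis) for the tabled genes in grey, with the 6 genes in purple and their limma standard errors as bars. Igha and Igkc are at the upper left, where few reads and large changes meet, with log2 fold changes of 3.77 and 3.14, and Stab2, at -0.76, lies within the dense band of lower genes.

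Levels of different genes were compared per kilobase of exon sequence. This is the union of the exons of all annotated transcripts of a gene, which can be longer than the transcript that is made. The order of the genes, and likeness between them, can therefore depend on this definition of length in both genotypes. In WT muscles Retnla was the most abundant of the 6, at 94.4 ± 12.1 (SD, n = 3) normalized counts per kilobase over its 599 exon bases. Mrc1 followed at 20.4 ± 1.96 and Stab2 at 16.9 ± 1.28 (SD, n = 3 each), and the lowest WT library of Mrc1, 18.9, was above the highest of Stab2, 18.3. Igkc had 7.42 ± 5.93, Blnk 3.69 ± 0.837 and Igha 0.679 ± 1.18 normalized counts per kilobase (SD, n = 3 each). Igkc and Blnk did not differ beyond the spread of Igkc.

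In NS-DADm muscles Retnla stayed highest, at 292 ± 67.0 (SD, n = 3) normalized counts per kilobase. Igkc came next at 73.5 ± 37.3 (SD, n = 3), and its lowest library, 45.1, was below the highest Mrc1 library, 46.4, so that these neighbours overlapped. Mrc1 was at 41.6 ± 5.77 (SD, n = 3). Stab2 (10.2 ± 3.13), Blnk (10.2 ± 0.980) and Igha (9.78 ± 4.85, SD, n = 3 each) were alike within their spread. Igkc and Igha measure constant regions alone, and the variable part of each antibody transcript is counted under other genes.

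The 6 genes did not vary as 1 group across mice. To see how they varied apart from genotype, each library was set against the mean of its genotype on the log2 scale. Mrc1 and Retnla deviated to the same side in 6 of 6 libraries. Both were lowest in WT2 and highest in WT3 within WT, and both were lowest in NS-DADm3 within NS-DADm. In WT their coefficients of variation, 9.60% and 12.8%, were close to the 8.44% and 12.8% that counting reads gives by itself. Their order in WT is thus not resolved beyond counting error. Deviations also sum to 0 within a genotype, so the 3 of a group are not independent. Igkc and Igha deviated to the same side in 5 of 6 libraries, and both had the highest normalized count in WT1 and NS-DADm3 and the lowest, among NS-DADm libraries, in NS-DADm2. Igkc went against Mrc1, and against Retnla, in all 6 libraries. The WT deviations rest on 8, 4 and 1 reads of Igkc and 6, 0 and 0 of Igha. At such counts a few reads and the pseudocount set the deviations, 0.97 for Igkc and 1.79 for Igha in WT1. In NS-DADm3 Igkc was 0.75 and Igha 0.73 above the mean of their genotype on the log2 scale, while Mrc1 was at -0.23 and Retnla at -0.35.

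**Figure D3:**
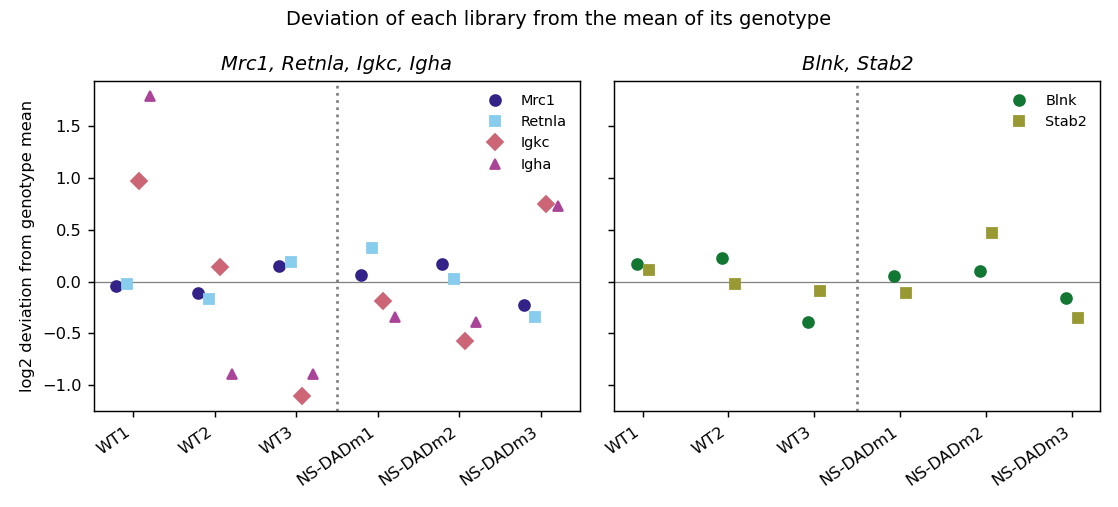
Deviation of each library from the mean of its genotype (vertical axis, log2 of normalized count + 1) for Mrc1, Retnla, Igkc and Igha at the left and for Blnk and Stab2 at the right, with WT libraries left and NS-DADm libraries right of each dotted line. In NS-DADm3 Igkc and Igha lie at 0.75 and 0.73, above the line at 0, while Mrc1, Retnla, Blnk and Stab2 lie below it.

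As a description over the 6 libraries, the Pearson correlation of these deviations was 0.81 for Mrc1 with Retnla and 0.82 for Igkc with Igha. It was -0.82 for Mrc1 with Igkc and -0.63 for Retnla with Igkc. Every value with Igkc or Igha rests in part on their few WT reads, so counting error enters it. The WT spread of Mrc1, Retnla, Blnk and Stab2 was close to counting error too, so it also enters the values among these genes. Of the 15 pairs of the 6 genes, 7 were positive and 8 negative. Blnk correlated at 0.47 with Igkc and -0.18 with Mrc1, and so followed neither pair closely, and Stab2 correlated at 0.63 with Mrc1. Correlations of this size were common in the table. Of its 250986 gene pairs, 5.97% reached the value of Mrc1 with Retnla or more and 5.53% that of Igkc with Igha, while 4.89% were as low as Mrc1 with Igkc. Library size and normalization are shared by all genes of a library, and 47.5% of tabled genes were lowest in NS-DADm3 among the NS-DADm libraries, while 29.3% were highest there. The genotypes form separate clusters and hold 3 libraries each, so no correlation was tested.

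**Figure D4:**
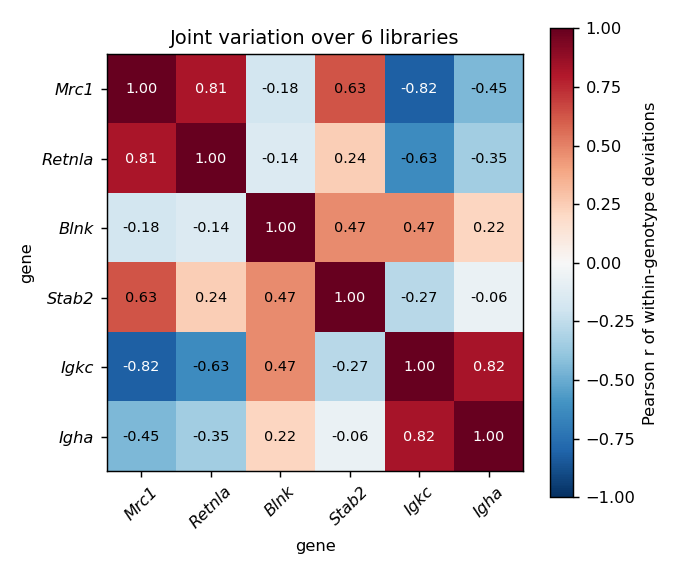
Pearson correlation, by colour and printed value, of the within-genotype deviations over 6 libraries for each pair of the 6 genes. Mrc1 with Retnla (0.81) and Igkc with Igha (0.82) are the most alike, and Mrc1 with Igkc (-0.82) the most opposed. Values with Igkc or Igha rest in part on few WT reads, and the WT spread of the other genes was close to counting error.

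The spread between mice was widest for the antibody transcripts. Among NS-DADm libraries the coefficient of variation was 50.8% for Igkc and 49.6% for Igha, where counting reads gives 16.8% and 20.6% by itself and the median over the table was 12%. NS-DADm3 was 2.56 times NS-DADm2 for Igkc and 2.25 times for Igha. Within each NS-DADm library the 2 transcripts kept a similar proportion, with 1.67, 1.32 and 1.5 normalized counts of Igkc for each of Igha. Stab2 had a coefficient of variation of 30.7% in NS-DADm and 7.56% in WT, and Retnla 22.9% and 12.8%. For Mrc1 they were 13.9% and 9.60%. In WT the spread of Mrc1, Retnla, Blnk and Stab2 was close to counting error, which gives 8.44%, 12.8%, 20.4% and 7.90%.

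The label of these genes as macrophage and antibody transcripts could be checked only against genes that the table lists. Of all tabled genes 50.9% were called higher and 49.1% lower, so a few listed genes of 1 direction are no result about a list. Of 44 macrophage and monocyte symbols 2 were listed, both of them among the 6 genes (Mrc1 and Retnla), and both were higher. The pan-macrophage markers Adgre1, Csf1r and Cd68, the complement genes C1qa, C1qb and C1qc and the leukocyte marker Ptprc were not listed. Of 36 B cell and plasma cell symbols 3 were listed, which are Igha, Igkc and Blnk, and Cd79a, Ms4a1, Jchain, Mzb1 and Sdc1 were not. Of 20 alternative activation symbols 2 were listed, again Mrc1 and Retnla, and Arg1 and Chil3 were not. Retnla was the 1 listed gene of the 4 resistin-like genes. A gene that is not listed was not tested or not called and has no value here, so the members stand for single transcripts and not for measured cell types.

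Genes that work beside the members were listed in small numbers. In B cell receptor signalling 3 of 26 symbols were listed and 3 were higher, namely Blnk, the kinase subunit Pik3cd and the adaptor Nck2. The share of higher genes was 50.9% over the whole table, so 3 genes do not show a change of the pathway. Pik3cd had a mean of 398 normalized counts in NS-DADm and 283 in WT, a log2 fold change of 0.49 (limma adjusted p = 0.00254), and Nck2, which is expressed in many cell types, had 277 and 179, a log2 fold change of 0.66 (limma adjusted p = 0.00661). Of 25 clearance receptors of the lectin, scavenger and stabilin families 3 were listed. Mrc1 and Cd36, the fatty acid transporter that muscle fibers and endothelium also make, were higher, and Stab2 was lower. The median log2 fold change was 0.66 in both lists, against 0.38 over all tabled genes and 0.69 over the higher genes alone. The value over all genes lies between the higher and the lower genes. With 3 listed genes each, the medians do not show a rise of either list. Stab1 and Lyve1, which accompany Stab2 in sinusoidal endothelium, were not listed, and Stab2 was the 1 listed gene of 14 lymphatic and sinusoidal symbols.

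Of 14 symbols for IgA transport and mucosal immunity 2 were listed and higher, Igha and Itgae, where 50.9% of all tabled genes were higher. Itgae (CD103) is an integrin chain of T cells and dendritic cells at epithelia, and its mean rose from 4.89 normalized counts in WT to 20.6 in NS-DADm, a log2 fold change of 1.93 (limma adjusted p = 0.00192). Its WT libraries held 7.24, 4.55 and 2.88 normalized counts, near the limit of detection. The ratio of its means, 4.22, was the median ratio of higher genes with a mean under 25, and so was ordinary for its abundance. It was also the 1 listed gene of 23 T cell and NK cell symbols. Lists for other cell types that whole muscle can hold gave no listed gene at all in 6 of 17 cases, namely dendritic cells, granulocytes and mast cells, blood vessel endothelium, fibroblasts, adipocytes, and erythrocytes with platelets. Over all lists only 14 of 287 symbols were listed, and these 6 lists held 10 to 17 symbols each. An empty list therefore does not show that a cell type was unchanged. Of 18 skeletal muscle symbols 3 were listed, Ttn and Actn3 higher and Myl1 lower, with WT means of 262488, 140315 and 62110 normalized counts. Of 11 muscle regeneration symbols 1 was listed, Actc1, the cardiac alpha-actin that developing and regenerating muscle also makes. It had 3114, 4030 and 4839 normalized counts in WT1, WT2 and WT3 but 1140, 839 and 521 for NS-DADm, and so was 4.79-fold lower, a log2 difference of -2.31 (limma adjusted p = 4.11e-05). Its part in the differences of the 6 genes was not tested. Whether a change in the number of any cell type moved with the 6 genes was not tested.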

How the data were processed

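RNA-seq libraries of TA muscle from 3 WT and 3 NS-DADm mice were grouped by their labels. Reads were aligned by the authors to GRCm38 with STAR, per the paper, or TopHat2 (2.1.0), per the submitters' processing notes, which also name HTSeq and DESeq2 (1.8.2). Which aligner, strand setting and annotation release were used is not settled by these sources. In the authors' deposited file the signal is the normalized count, listed by library for 709 genes they called, beside 7 columns of their own comparison and group means, which were not used. Genes not called are not analysed here.

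For each gene, limma 3.58.1 (R 4.3.3) estimated the two-sided genotype difference of log2(normalized count + 1) with a trended prior variance, and p-values were adjusted by Benjamini-Hochberg across 709 genes. The pseudocount shrinks fold changes of sparsely read genes. No filter on low values was applied, and the smallest mean in the table was 12.2. Fold values are ratios of group means. Exact 95% intervals cover counting error only, since reads were pooled over the mice of a genotype. The reads carry no molecular identifiers, so even counting error may be understated. The fit was first tested on simulated data. Positions, exon lengths and overlaps were read from GENCODE M21 (GRCm38), where 706 of 709 identifiers were found, and promoter sequences from RefSeq. Intervals and permutation tests were computed in scipy 1.17.1, with tables in pandas 2.3.3.

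The rule for named genes took the 6 members, tabled genes of the immune, receptor and endothelial lists, and the 2 genes most like each member in within-genotype deviations. Tabled genes of the muscle lists and the example genes of the closing observations fall outside it and were chosen after their values were seen. The members and the 17 gene lists were chosen with earlier results of these data known. Alternatives covered pseudocounts, a filter, normalization, the variance model, a replicate block and leaving out each library.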

Additional observations from a re-analysis of the deposited data

How the results depend on the processing

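Each of the 75 alternative values of the 6 genes kept its direction and an adjusted p under 0.05 in limma. The table was itself selected from these mice, so this is partly built in. Log2 fold changes ranged from 0.74 to 1.16 for Mrc1, 1.32 to 1.77 for Retnla, 1.18 to 1.56 for Blnk, -1.04 to -0.54 for Stab2, 2.27 to 3.62 for Igkc and 2.21 to 4.66 for Igha. Stab2 came nearest to the threshold, at an adjusted p of 0.0418 under quantile normalization, and over its alternatives the adjusted p was 3.57e-04 to 0.0418. Leaving out 1 library at a time gave 0.94 to 1.13 for Mrc1, 1.43 to 1.77 for Retnla, 1.25 to 1.56 for Blnk, -0.995 to -0.585 for Stab2, 2.59 to 3.62 for Igkc and 3.32 to 4.66 for Igha. Igkc was 2.59 without WT3, which held 1 read, and 2.27 with a pseudocount of 5. When the tabled genes of each library were scaled to 1 total, the log2 fold changes of all genes shifted by a median of -0.28, and 218 genes were higher and 348 lower, against 361 and 348 in the main test. The members kept their directions there. The filter at a mean of 50 left Blnk, Igkc and Igha without a value. Libraries that share a number had correlations of their deviations across genes of -0.149, 0.148 and 0.0502, and were not treated as pairs. With the replicate block the counts were 361 higher and 348 lower, and no call of a member changed (Mrc1 1.02, adjusted p = 0.00321, and Stab2 -0.76, adjusted p = 0.0101). Planned tests on whole reads were not run, since the main unit is a normalized value and the genes are a selected part of those counted. Depth limits Igha and Igkc most, with 6 and 13 reads over all WT libraries.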

Other observations

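Other immune and phagocyte-related genes of the table are given as single examples. They were picked after their values were seen, and their directions say nothing of such genes as a group. Lgmn, the lysosomal protease legumain, had means of 822 normalized counts in NS-DADm and 417 in WT, and Pla2g7, a lipoprotein-associated phospholipase, 1575 and 820. The cathepsin gene Ctsl (2051 and 1347) and the complement gene C3 (931 and 574) were also higher. The lysosomal activator Gm2a (141 and 229) and the tetraspanin Cd63 (284 and 443) were lower. Muscle fibers and connective tissue also make many of these transcripts. Bach2, a repressor that B cells hold until they become plasma cells, had 71.6 normalized counts in NS-DADm and 33.8 in WT, and Vtcn1, a B7-family ligand, 23.7 and 1.87. In WT1, WT2 and WT3 Vtcn1 had 0, 2.73 and 2.88 normalized counts, no more than the 3 reads that a count of 0 allows. The size of its difference is thus not resolved. The NF-kappaB subunit Relb (52.8 and 107), the integrin chain Itga4 (261 and 455) and the interferon-induced Ifit3b (26.6 and 67.3) were lower, while the interferon-induced Usp18 was higher (45.3 and 19.7).

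The tabled genes whose within-genotype deviations were most like those of each member over the 6 libraries were Cacybp (r = 0.996) and Lpl (0.991) for Mrc1, Ascc3 (0.991) and Hibadh (0.984) for Retnla, Usp18 (0.991) and Celsr2 (0.989) for Blnk, and Acadsb (0.991) and Zdhhc23 (0.989) for Stab2. For Igkc they were Ralgds (0.978) and P2rx6 (0.949), and for Igha Zfp608 (0.999) and Mmgt2 (0.983). These values are a description of 6 libraries, and 5 to 29 other genes exceeded 0.9 for each member. Mrc1's closest gene, Cacybp, was lower in NS-DADm while Mrc1 was higher.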
